A study of Mus musculus with 28 samples.

Results

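Skin of irradiated mice lacking VISTA was compared with skin of irradiated wild-type mice, using the 6 libraries that carry those labels out of 28 in the series. The KO_UV group holds 3 libraries from whole-body Vsir-/- mice (titled VISTAKO) and the WT_UV group holds 3 from WT mice, which the design text calls littermates. All were 12-week-old females. They had been shaved and treated with Nair 5 days earlier and received ultraviolet B light (UVB) at 500 mJ/cm2. The time of harvest is uncertain, since 3 h after UVB stands in the sample titles and 1 day in the treatment protocol. Which part of Vsir was deleted is not given in the sources used here. RNA came from whole skin, so every value is a mixture of epidermis, dermis, fat and skin muscle.

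Other groups enter only beside these. Unirradiated WT_NoUV and KO_NoUV mice, 3 libraries each, share the batch label of the irradiated ones. A second experiment under another batch label holds FL_UV, irradiated mice with floxed Vsir, and cKO_UV, irradiated K14creVsirfl/fl mice, 4 libraries each. K14 (keratin 14) drives Cre recombinase in basal keratinocytes, so VISTA on immune cells is left in place there. The design text calls the libraries biological replicates, and no label ties a library to a particular mouse.

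VISTA, the product of Vsir, is an immune checkpoint protein of the B7 family carried mainly by myeloid cells and by T cells. It restrains T cell activation and the inflammatory output of monocytes and macrophages. Acute UVB damages DNA in keratinocytes, turns on p53 targets and stress genes, and brings in myeloid cells through chemokines. Type I interferon, sensed through IFNAR, acts on interferon-stimulated genes through transcription factors that bind the interferon-stimulated response element in promoters.

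Most interferon-stimulated genes lay higher in KO_UV, so the promoter letters that mark such genes are shown for 4 of them. The motif searched was GAAA, then any 2 bases, then GAAA, the core of the response element, on both strands of the 250 bases before the start site in RefSeq promoters of build GRCm38.p6. Trim30a and Stat2 are the motif-bearing members of the list with the smallest p in this comparison, and Ifit1 and Isg15 belong to a fixed panel. Each line runs 5′ to 3′ in the direction of the gene, and capitals mark the motif or its reverse complement.
Trim30a, chr7:104465200-104465249, minus strand: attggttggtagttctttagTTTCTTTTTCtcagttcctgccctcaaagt
Stat2, chr10:128270256-128270305, plus strand: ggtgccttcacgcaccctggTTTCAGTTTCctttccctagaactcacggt
Ifit1, chr19:34640784-34640833, plus strand: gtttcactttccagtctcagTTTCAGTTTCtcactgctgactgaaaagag
Isg15, chr4:156200855-156200904, minus strand: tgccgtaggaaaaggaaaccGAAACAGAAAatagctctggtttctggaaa
The motif begins 36 bases before the start site in Trim30a, 222 in Stat2, 85 in Ifit1 and 66 in Isg15. It was found in 14 of the 30 interferon-stimulated promoters with an entry (46.7%) and in 10 of 14 promoters of interferon gamma-inducible genes (71.4%), against 3.04% of all 27025 promoters. None of the 7 monocyte chemokine promoters, the 14 macrophage marker promoters or the 6 promoters of called genes held these letters. At the 3.04% of all promoters, sets this small would often hold none. Antigen presentation promoters held the letters in 3 of 18 (16.7%) and proliferation promoters in 1 of 21 (4.76%). These are matches of letters and not measurements of binding. The lists were made of known interferon genes, chosen with earlier results of these data known, and only members tested here were searched. A share of promoters with the motif does not measure levels in KO_UV or WT_UV. These shares therefore say nothing about the difference between the groups.

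The 6 libraries held 30470828 to 38208620 counts over genes. Epidermal keratin Krt5 measured 1700 to 4970 CPM (counts scaled to library size, after TMM normalization) in them, which fits the labelled tissue. Gm42418, a gene that overlaps ribosomal RNA, took 2.07% of the counts of KO_UV replicate 3 and 9.17% to 13.5% of those of the other 5, so that library stands apart. WT_UV replicate 3 also stood apart in markers of growing hair, with Krt25, an inner root sheath keratin, at 24 CPM against at most 0.0276 CPM in the other 5. KO_UV replicate 2 had the highest mean of the interferon-stimulated list. The first principal component of the 6 libraries carried 43% of the variance, and in it every KO_UV library lay across 0 from every WT_UV library. Its scores were -9.828, -72.15 and -14.75 in WT_UV and 16.72, 49.14 and 30.86 in KO_UV. WT_UV replicate 2 thus lay farthest from 0, and WT_UV replicate 1 lay nearer to KO_UV replicate 1 than to WT_UV replicate 2. The 43% is therefore not a share due to genotype.

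At an adjusted p of 0.05, 9 of 20365 genes tested were called (0.0442%), 8 higher in KO_UV (0.0393%) and 1 lower (0.00491%). The test was edgeR's quasi-likelihood test with Benjamini-Hochberg adjustment over all genes tested, and its changes are log2 fold changes ± the standard error (SE) of the fit. The single gene that fell was the deleted one, and those that rose include 3 genes of tissue macrophages and lymphatic vessels, a neurotrophin receptor and a mitochondrial gene. The unadjusted p was under 0.05 for 3071 genes (15.08%). Every KO_UV library lay above every WT_UV library for 2448 genes (12%) and below for 2072 (10.2%), which is the background for the counts of this kind given below.

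Vsir measured 22, 20.2 and 24 CPM in WT_UV and 3.24, 3.76 and 1.98 CPM in KO_UV. The groups did not overlap, and the gene fell by 2.89 on the log2 scale (SE 0.24, edgeR adjusted p = 0.000332), a 7.41-fold difference. The gene lies on chromosome 10 at 60346851 to 60372684 in GRCm38. Counts per gene do not separate the deleted part from the rest of the transcript, so the remaining 81 to 108 counts per KO_UV library do not show intact message. Among the 85 genes tested within 5 Mb of Vsir, where DNA from the targeted stem cells can persist beside a deletion, Vsir alone was called. An unadjusted p under 0.05 was found for 14 of these 85 (16.5%), near the 15.08% over all genes.

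Of the 8 genes that rose, Timd4 and Msr1 are macrophage genes, and Lyve1 is shared by macrophages and lymphatic vessels. Lyve1, a hyaluronan receptor of lymphatic endothelium and of perivascular macrophages, measured 51.0, 37.1 and 59.4 CPM in WT_UV and 201, 221 and 229 CPM in KO_UV. All KO_UV libraries were thus above 200 and all WT_UV libraries below 60, a rise of 2.14 ± 0.29 (edgeR adjusted p = 0.0241). Timd4, the phosphatidylserine receptor with which resident macrophages take up dying cells, measured 1.87, 0.744 and 1.59 CPM against 7.76, 11.3 and 6.91 CPM, a rise of 2.62 ± 0.38 (edgeR adjusted p = 0.0334). Msr1, the class A scavenger receptor of macrophages, measured 9.30, 9.76 and 13.9 CPM against 29.8, 41.0 and 33.5 CPM, a rise of 1.66 ± 0.26 (edgeR adjusted p = 0.049). In all 3 genes the lowest KO_UV library was at least as far above the highest WT_UV library as the WT_UV libraries were from each other. Endothelial markers, the list that holds Lyve1, had a median of 0.18 with 9 of 14 above 0 and no other call by edgeR or DESeq2. Among them Prox1, the transcription factor that sets lymphatic identity, stood at 0.54 ± 0.32 (edgeR adjusted p = 0.408).

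Ngfr encodes the low-affinity neurotrophin receptor p75, found on nerves, Schwann cells and parts of the hair follicle. It measured 4.58, 3.01 and 3.76 CPM in WT_UV and 11.4, 13.8 and 15.9 CPM in KO_UV, a rise of 1.86 ± 0.24 (edgeR adjusted p = 0.0184). mt-Nd3, which encodes a subunit of respiratory complex I on the mitochondrial genome, measured 0.807, 0.303 and 0.711 CPM against 4.86, 4.84 and 6.57 CPM, a rise of 3.16 ± 0.35 (edgeR adjusted p = 0.00554). Both genes separated the groups without overlap. Mmd2, a membrane protein of the progestin and adipoQ receptor family, had 1 count in all of WT_UV and 107 in KO_UV. The ratio of its rates was 111, with a 95% exact binomial interval for counting error of 19.5 to 4430 (edgeR adjusted p = 0.0334).

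The remaining pair changed less. Mettl7a1, a methyltransferase-like protein of lipid droplets and endoplasmic reticulum, measured 35.0, 32.4 and 32.2 CPM in WT_UV and 62.1, 56.8 and 57.2 CPM in KO_UV, a rise of 0.82 ± 0.12 (edgeR adjusted p = 0.0431). Gm20559, a predicted gene, measured 9.26, 7.58 and 9.50 CPM against 18.0, 28.6 and 23.5 CPM, a rise of 1.41 ± 0.22 (edgeR adjusted p = 0.049). In neither gene did the groups overlap.

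**Figure D1:**
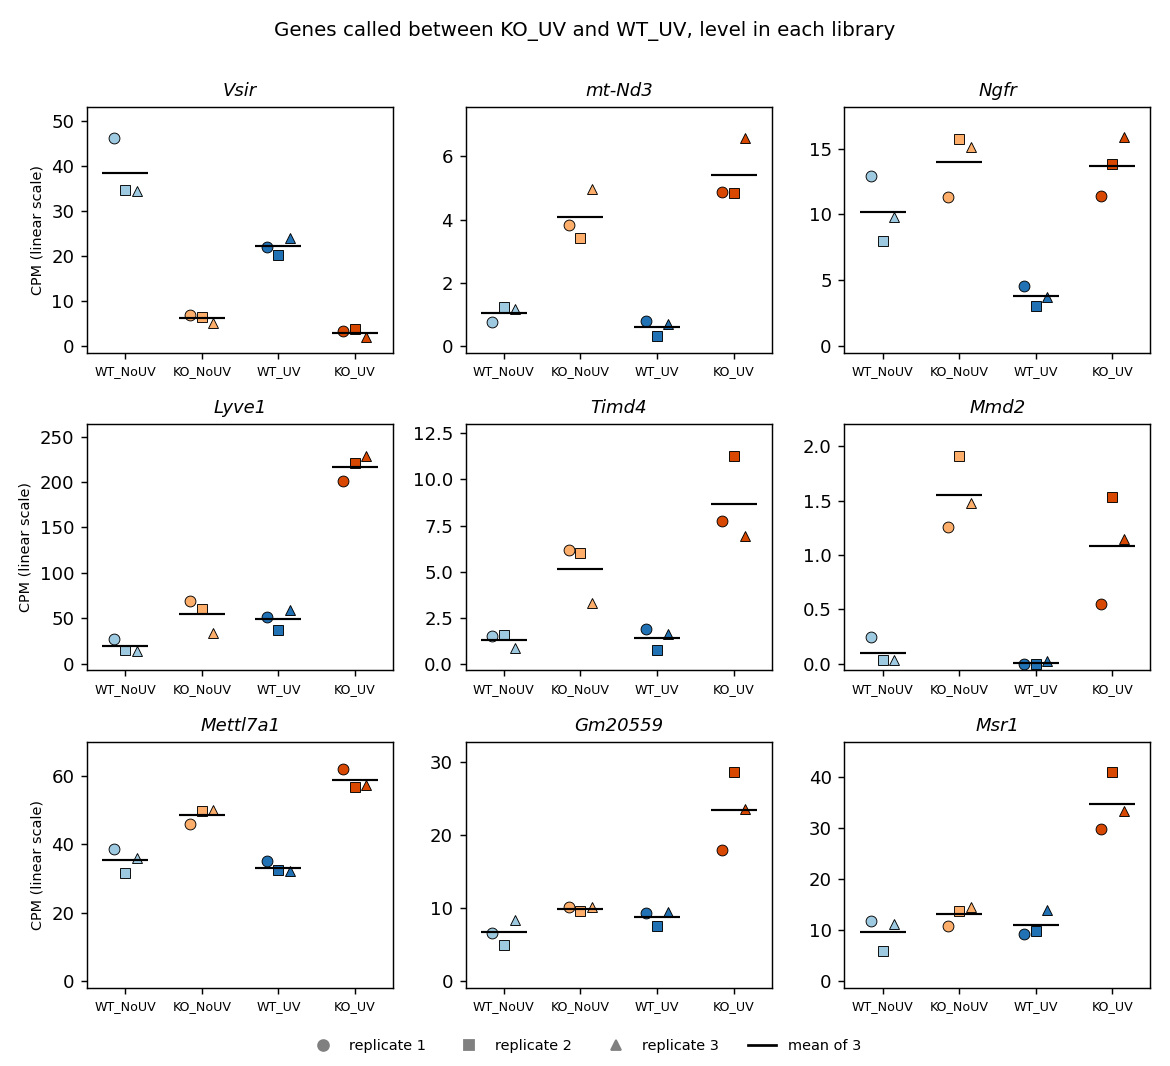
Level of the 9 called genes in each whole-body library, in CPM on linear axes that include 0, with 3 replicates per group as symbols and their mean as a bar. For Lyve1 the KO_UV libraries sit between 201 and 229 CPM and the WT_UV libraries between 37.1 and 59.4 CPM, whereas Vsir runs the other way.

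The number of calls depended on single libraries and on the tool. It was 2 without WT_UV replicate 2, 2 without KO_UV replicate 2, 2 without KO_UV replicate 3 and 19 without WT_UV replicate 3, and Vsir was called in each. Of the other called genes, mt-Nd3 was called whichever of the 12 libraries was left out, Ngfr in 9 of the 12 and Lyve1 in 7. Timd4, Msr1, Mmd2 and Gm20559 were each called in 4 of the 12, and Mettl7a1 in 3. Without KO_UV replicate 3 and KO_NoUV replicate 2 together, the libraries of low Gm42418 share, only Vsir was called, and mt-Nd3 had an edgeR adjusted p of 0.106. DESeq2 called 450 of the 16801 genes to which it gave an adjusted p (2.68%), 303 higher (1.8%) and 147 lower (0.875%), and all 9 genes were among them.

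Of the 41 interferon-stimulated genes tested, none was called by edgeR, 39 were above 0 and 29 had every KO_UV library above every WT_UV library (70.7%, against 12% of all genes). Their median log2 fold change was 1.22, against 0.03 over all genes, and 32 had an unadjusted p under 0.05. Phf11d, an interferon-inducible PHD finger gene, measured 6.17, 3.23 and 6.77 CPM in WT_UV and 16.3, 22.4 and 13.6 CPM in KO_UV, at 1.69 ± 0.30 (edgeR adjusted p = 0.0571). Trim30a, a ubiquitin ligase that dampens innate signalling, stood at 1.43 ± 0.30 (edgeR adjusted p = 0.0829). Stat2, a transcription factor of interferon signalling, stood at 1.01 ± 0.21 (0.0857), and Herc6, an enzyme that attaches ISG15 to proteins, at 1.34 ± 0.28 (0.0879). DESeq2 called 21 of the 40 members with an adjusted p, all higher in KO_UV.

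The classical antiviral effectors were more variable between libraries. Oas2, a sensor enzyme that activates RNase L, measured 8.91, 12.0 and 14.7 CPM in WT_UV and 23.7, 48.5 and 27.6 CPM in KO_UV, at 1.49 ± 0.37 (edgeR adjusted p = 0.134). Mx1, a dynamin-like antiviral GTPase, measured 2.45, 2.87 and 7 CPM against 9.45, 15.4 and 10.3 CPM, at 1.51 ± 0.43 (0.187). Irf7, the transcription factor that amplifies interferon production, stood at 1.23 ± 0.44 (0.256). In these genes the groups did not overlap.
Ifit1, which binds viral RNA, measured 4.91, 2.59 and 27.7 CPM in WT_UV and 31.0, 47.8 and 18.0 CPM in KO_UV, so WT_UV replicate 3 lay within the KO_UV range (1.46 ± 0.66, edgeR adjusted p = 0.328). Isg15, the ubiquitin-like modifier, also overlapped, at 1.45, 3.42 and 4.01 CPM against 6.18, 9.60 and 3.10 CPM (1.08 ± 0.60, edgeR adjusted p = 0.392).

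Genes induced through interferon gamma showed the largest list median, 1.68 over 21 members tested. All 21 were above 0, and 17 had no overlap between groups, but edgeR called none (18 at an unadjusted p under 0.05) and DESeq2 called 15 of 19. Gbp6, a guanylate-binding protein of cell-autonomous defence, measured 1.03, 1.1 and 1.82 CPM in WT_UV and 3.93, 10.5 and 4.20 CPM in KO_UV, at 2.23 ± 0.42 (edgeR adjusted p = 0.0678). Cxcl9, the chemokine that draws CXCR3-bearing T cells, measured 1.61, 2.98 and 4.15 CPM against 8.49, 47.9 and 15.1 CPM, at 3.02 ± 0.63 (0.0862). Gbp8 stood at 2.38 ± 0.48 (0.0743) and Irgm2, an immunity-related GTPase, at 1.75 ± 0.43 (0.13). Reads of near-identical GBP and IRG genes may be shared between copies, since the counting of such reads is not stated.

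KO_UV replicate 2 was highest in each of these 4 genes. The mean log2 CPM of the interferon-stimulated list was 2.58, 2.55 and 3.52 in WT_UV and 3.90, 4.61 and 3.74 in KO_UV. For the interferon gamma list it was 1.70, 1.89 and 2.60 against 3.05, 4.58 and 3.22. Without KO_UV replicate 2 the list medians were 0.86 and 0.91, and without WT_UV replicate 3 they were 1.54 and 2.1.

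The ligands and sensors above these genes gave smaller values. Ifnb1 had 1 count in WT_UV and 0 in KO_UV, and Ifnk, the interferon of keratinocytes, had 4 and 7, so neither was tested. Of 18 ligands, receptors and sensors tested, 16 were above 0, with a median of 0.31, and edgeR called none. DESeq2 called 3 of the 17 with an adjusted p, all higher. The RNA sensors Ifih1 and Ddx58 stood at 0.89 ± 0.23 (edgeR adjusted p = 0.148) and 0.82 ± 0.22 (0.153), and the endosomal receptor Tlr3 at 0.77 ± 0.22 (0.191). Each of these 3 sensors had every KO_UV library above every WT_UV library.

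Antigen presentation genes were above 0 in 23 of 23 members, with a median of 0.36, and edgeR called none (10 at an unadjusted p under 0.05) where DESeq2 called 3. Without KO_UV replicate 2 the median was 0.19 with 15 of 23 above 0, and with the muscle and hair follicle covariates described below it was 0.2, also with 15. B2m, the light chain of MHC class I, measured 949, 1090 and 1310 CPM in WT_UV and 1900, 2500 and 2030 CPM in KO_UV, at 0.94 ± 0.17 (edgeR adjusted p = 0.0582). The class Ib genes H2-Q4 and H2-Q6 stood at 0.98 ± 0.18 (0.0627) and 1.35 ± 0.30 (0.101), and H2-M3 at 0.83 ± 0.25 (0.211). Copies of the H2-Q family are near-identical, so their separate counts are uncertain.

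Chemokines that attract monocytes lay above 0 in 11 of 12 members, 8 of them without overlap between groups, with a median of 1.09 and no call by edgeR (8 at an unadjusted p under 0.05) where DESeq2 called 4 of 11. Ccl6, a macrophage chemokine, measured 81.8, 121 and 142 CPM in WT_UV and 309, 421 and 328 CPM in KO_UV, at 1.62 ± 0.31 (edgeR adjusted p = 0.0678). Its relative Ccl9 measured 103, 125 and 149 CPM against 235, 357 and 259 CPM, at 1.17 ± 0.23 (0.0706). The lowest KO_UV library lay above the highest WT_UV library in both genes.
Ccl12, a ligand of CCR2, stood at 1.71 ± 0.39 (edgeR adjusted p = 0.101). The CCR2 ligands Ccl2 and Ccl7 stood at 0.89 ± 0.30 (0.237) and 1.23 ± 0.39 (0.218). All 5 of these chemokine genes had every KO_UV library above every WT_UV library.

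Macrophage markers accompanied the chemokines. All 19 tested were above 0, 9 without overlap between groups, with a median of 0.69, and Timd4 and Msr1 were called, while DESeq2 called 7 of 18. Without KO_UV replicate 2 the median was 0.60 with 16 of 19 above 0, and edgeR called none. Without KO_UV replicate 3 it was 0.70 with all 19 above 0, again with no call by edgeR. Cd5l, a secreted scavenger protein of tissue macrophages, stood at 3.00 ± 0.66 (edgeR adjusted p = 0.0961) on levels of 0.226, 0.11 and 0.370 CPM in WT_UV and 0.828, 2.61 and 2.25 CPM in KO_UV. Itgam, the integrin CD11b of myeloid cells, stood at 1.28 ± 0.29 (0.1). The markers did not move alike.
Mrc1, the mannose receptor of resident macrophages, stood at 0.99, whereas Csf1r, the receptor that all macrophages need, stood at 0.15 and Cd163, another scavenger receptor, at 0.19, these 3 being chosen after their values were seen. In bulk skin, fewer or more cells of a type and less or more RNA per cell cannot be told apart. Mean log2 CPM of the list was 4.19, 4.59 and 4.88 in WT_UV and 5.11, 5.92 and 5.55 in KO_UV, and the part of the macrophage markers in the chemokine and interferon values was not tested.

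Other leukocyte lists gave medians on both sides of that of all genes. The neutrophil list stood at -0.07 (7 tested), mast cell markers at -0.01 (11), monocyte markers at 0.07 (12), T cell markers at 0.26 (17), dendritic and Langerhans cell markers at 0.23 (14) and NK cell markers at 0.73 (8). edgeR called none of their members, and DESeq2 called 3 monocyte markers and 1 dendritic or Langerhans cell marker, all higher.
The monocyte list was split. Plac8, a gene of inflammatory monocytes, measured 8.84, 12.6 and 21.7 CPM in WT_UV and 47.2, 59.4 and 40.4 CPM in KO_UV, at 1.77 ± 0.40 (edgeR adjusted p = 0.1). The Fc receptor Fcgr4 stood at 2.04 ± 0.60 (0.204) and Ms4a4c at 1.82 ± 0.58 (0.223), both without overlap between groups. Gzma, a granzyme of NK and cytotoxic T cells, stood at 2.22 ± 0.52 (0.113) on levels of 0.161, 0.11 and 0.256 CPM against 0.449, 0.8 and 1.22 CPM. Cd8a, the co-receptor of cytotoxic T cells, measured 0.161, 0.221 and 1.57 CPM in WT_UV and 4.21, 5.29 and 2.22 CPM in KO_UV (2.56 ± 0.85, edgeR adjusted p = 0.235). Trac, the T cell receptor alpha constant gene, stood at 0.80 ± 0.38 (0.344), while Trbc2, the beta constant gene, stood at -0.66 ± 0.23 (0.247). T cell genes thus lay on both sides of 0. Mgl2, a lectin of dermal dendritic cells and macrophages, stood at 1.01 ± 0.24 (0.116).

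Partners of VISTA and other checkpoints were led by Vsir itself. Of 24 tested, 17 were above 0, with a median of 0.32. edgeR called no other, and DESeq2 called 2 others, both higher, Cd80 and Cd200r1. Cd80, a ligand of CD28 and CTLA-4, measured 1.81, 1.63 and 2.65 CPM in WT_UV and 4.59, 4.66 and 4.44 CPM in KO_UV, at 1.17 ± 0.24 (edgeR adjusted p = 0.0733). Cd200r1, an inhibitory myeloid receptor, stood at 1.24 ± 0.34 (0.172), Cd276, the B7 relative B7-H3, at -0.67 ± 0.26 (0.278), and Cd274, which encodes PD-L1, at 0.62 ± 0.27 (0.308).

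None of the acute inflammatory genes commonly read after UVB was called by edgeR. Il6 measured 3.07, 2.81 and 4.33 CPM in WT_UV and 5.90, 7.93 and 6.40 CPM in KO_UV, without overlap, at 0.99 ± 0.59 (edgeR adjusted p = 0.422). Il1b stood at -0.44 ± 0.46 (0.638), Tnf at 0.34 ± 0.50 (0.747) and Ptgs2, the inducible cyclooxygenase, at 0.05 ± 0.41 (0.96). The neutrophil chemokine Cxcl1 stood at 0.37 ± 0.58 (0.763) and the neutrophil and keratinocyte alarmin S100a8 at 0.18 ± 0.59 (0.899). The 95% intervals were wide, from -0.84 to 0.94 for Ptgs2 and from -0.88 to 1.62 for Cxcl1, so these values do not show equal levels. Within wider families, the adhesion molecule Vcam1 stood at 1.34 ± 0.31 (0.103), the pentraxin Ptx3 at 1.82 ± 0.54 (0.202), complement C3 at 1.00 ± 0.33 (0.237), the inflammatory caspase Casp1 at 0.93 ± 0.19 (0.0829) and the IL-18 receptor Il18r1 at 1.14 ± 0.26 (0.101). DESeq2 called Vcam1, Casp1 and Il18r1, all higher, and neither Ptx3 nor C3. All 15 complement genes tested were above 0, with a median of 0.64 and no call by edgeR or DESeq2.

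Genes of the UVB damage response had medians slightly below 0. The p53 targets had a median of -0.11 (25 tested, 10 above 0), nucleotide excision repair genes -0.11 (17, 7 above 0), immediate early genes -0.17 (28, 9 above 0), NRF2 targets -0.17 (18, 7 above 0) and heat shock genes -0.10 (20, 6 above 0), none with a call by edgeR. Cdkn1a, the cell cycle inhibitor p21, measured 249, 449 and 342 CPM in WT_UV and 327, 241 and 217 CPM in KO_UV, at -0.41 ± 0.26 (edgeR adjusted p = 0.441). Fas, a death receptor and p53 target, stood at 0.74 ± 0.24 (0.222), and Ddit4, an inhibitor of mTORC1, at -1.18 ± 0.42 (0.257). Ddb1, part of the UV damage sensor, stood at -0.41 ± 0.13 (0.235) and the stress factor Atf3 at 0.42 ± 0.35 (0.552). The p53 targets did not share a direction.

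**Figure D2:**
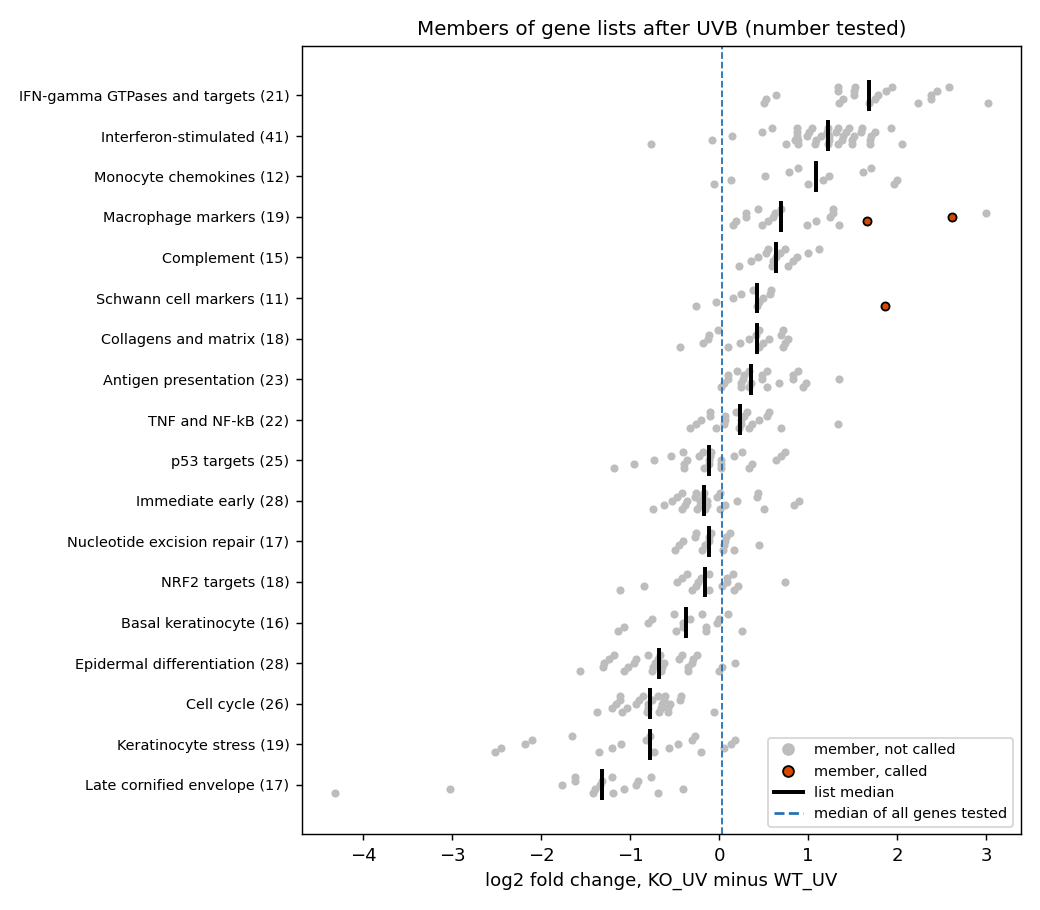
Log2 fold change between KO_UV and WT_UV for the tested members of 18 gene lists, 1 dot per gene, with the list median as a black bar and the median of all genes tested (0.03) as a dashed line. Interferon lists lie to the right with medians of 1.22 and 1.68 and late cornified envelope genes to the left at -1.32, and only 3 dots are called.

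Proliferation genes lay below 0 in 26 of 26 members tested, with a median of -0.77, and edgeR called none (24 at an unadjusted p under 0.05). In 18 of the 26 every KO_UV library lay below every WT_UV library (10.2% of all genes), and DESeq2 called 8 of 26. Cdk1, the kinase that starts mitosis, measured 17.3, 17.7 and 21.9 CPM in WT_UV and 9.11, 6.33 and 10.9 CPM in KO_UV, at -1.11 ± 0.23 (edgeR adjusted p = 0.0862). Aurkb, a kinase of chromosome segregation, measured 11.5, 13.4 and 14.9 CPM against 4.80, 3.48 and 7.08 CPM, at -1.37 ± 0.29 (0.0917). The replication helicase subunits Mcm3 and Mcm5 stood at -0.94 ± 0.20 (0.0939) and -1.20 ± 0.27 (0.101). KO_UV replicate 2 was lowest in these 4 genes, and the list median was -0.58 without it.

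Epidermal genes also lay lower. Of 28 differentiation genes tested, 26 were below 0 with a median of -0.68. Krt1, the suprabasal keratin, measured 4400, 6390 and 5350 CPM in WT_UV and 2440, 1220 and 2900 CPM in KO_UV, at -1.30 ± 0.34 (edgeR adjusted p = 0.152). Klk5, a protease of shedding corneocytes, stood at -1.07 ± 0.26 (0.133). Tgm1, the enzyme that cross-links the cornified envelope, stood at -0.72 ± 0.22 (0.211) and Ivl, an envelope protein, at -0.93 ± 0.29 (0.213).
All 17 late cornified envelope genes tested were below 0, with a median of -1.32, and 10 did not overlap between groups. Lce1d measured 5.68, 7.5 and 5.81 CPM against 2.45, 1.11 and 3.91 CPM, at -1.32 ± 0.34 (0.147), and Lce1c stood at -0.93 ± 0.26 (0.175). These genes are near-identical, so their separate counts are uncertain. edgeR called no member of either list (14 and 12 at an unadjusted p under 0.05), and DESeq2 called 2 of 27 and 5 of 15, all lower.

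The stress and basal compartments gave the same sign with wider or smaller values. Of 19 stress genes tested, 16 were below 0, with a median of -0.78. Sprr2h and Sprr1b, small proline-rich envelope proteins, stood at -2.18 ± 0.63 (edgeR adjusted p = 0.191) and -2.10 ± 0.81 (0.282), and Krt6a, a wound keratin, at -1.10 ± 0.97 (0.577). The median of the stress list was -0.40 without WT_UV replicate 3.
Basal keratinocyte genes had a median of -0.37, with 14 of 16 below 0. The placental cadherin Cdh3 measured 33.4, 30.6 and 30.6 CPM in WT_UV and 20.4, 15.1 and 20.9 CPM in KO_UV, at -0.75 ± 0.15 (edgeR adjusted p = 0.0733). Krt5 stood at -0.80 ± 0.29 (0.267), and the integrins Itga3 and Itga6 at -1.14 ± 0.36 (0.22) and -0.41 ± 0.15 (0.269).

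Markers of other tissue parts also differed between libraries. The growing hair follicle list had a median of -1.24, which was -0.25 without WT_UV replicate 3, and its mean log2 CPM was 0.56, 0.36 and 2.84 in WT_UV and 0.01, -0.08 and 0.61 in KO_UV. Skeletal muscle markers had a mean log2 CPM of 8.82, 8.65 and 8.40 against 8.89, 9.34 and 8.56, and KO_UV replicate 2 was highest. Red blood cell markers were above 0 in 8 of 8 members with a median of 0.9, but their mean log2 CPM of 0.21, 2.26 and 1.52 in WT_UV and 3, 3.01 and 0.79 in KO_UV overlapped. Melanocyte markers were below 0 in 8 of 9 with a median of -0.72, and their means of 2.91, 1.96 and 3.73 against 2.07, 1.39 and 3.06 overlapped too. The shares of epidermis, follicle, muscle, blood and melanocytes in each piece of skin were not measured, and their part in the epidermal, proliferation and immune values was not tested. With the muscle and follicle list means as covariates, edgeR called 273 genes, 206 higher and 67 lower, among them 19 interferon-stimulated genes and all 9 genes named first. In the unirradiated comparison the same covariates left 0 calls, so even Vsir was lost. There the muscle means were 8.22, 8.36 and 7.57 in WT_NoUV and 9.22, 9 and 8.97 in KO_NoUV, without overlap. The covariates come from the same libraries, so the 273 calls are not a test of tissue share.

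**Figure D3:**
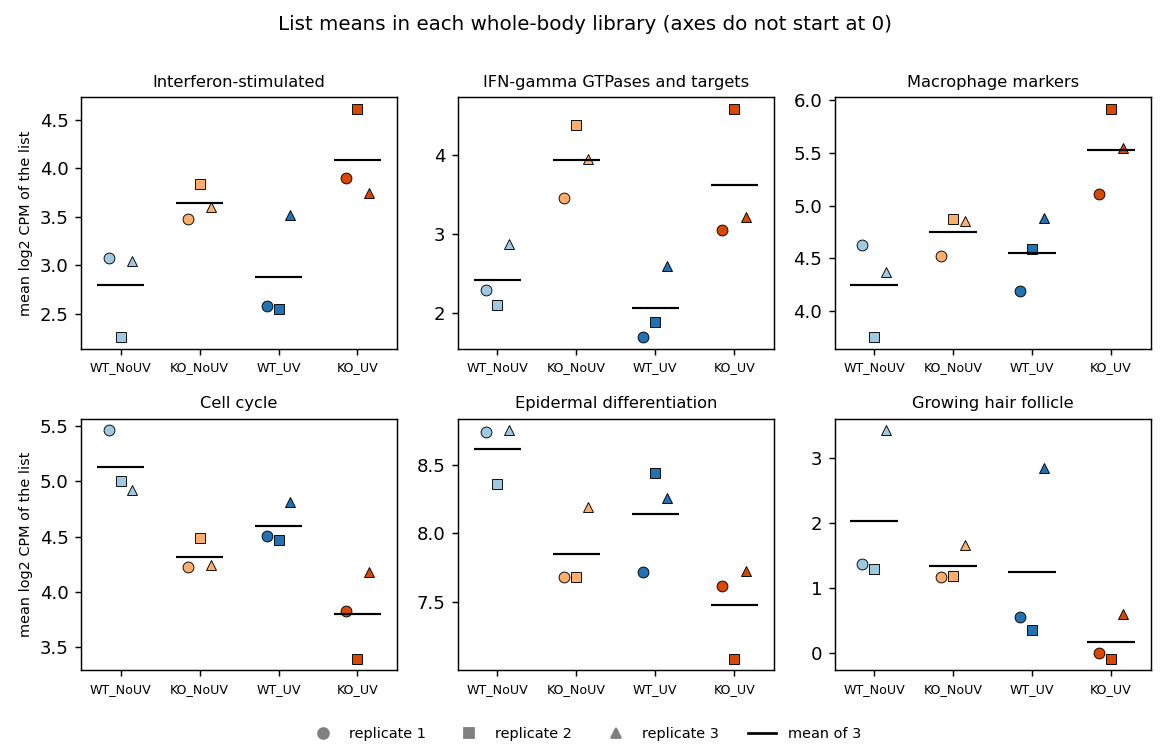
Mean log2 CPM of the tested members of 6 gene lists in each whole-body library, with 3 replicates per group as symbols and their mean as a bar, on axes that do not start at 0. KO_UV replicate 2 is the highest for both interferon lists (4.61 and 4.58) and the lowest for the cell cycle list (3.40), and WT_UV replicate 3 stands out for hair follicle (2.84).

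Most matrix and nerve genes tested lay higher, and neither edgeR nor DESeq2 called a gene of the collagen and matrix list. Matrix genes had a median of 0.43 (13 of 18 above 0), with collagen III gene Col3a1 at 3160, 2270 and 3140 CPM in WT_UV and 4960, 5050 and 4300 CPM in KO_UV (0.74 ± 0.23, edgeR adjusted p = 0.214). The metalloproteinase Mmp27 stood at 1.37 ± 0.24 (0.0563), the metalloproteinase inhibitor Timp3 at 1.01 ± 0.22 (0.0939) and the plasminogen activator Plau at 1.05 ± 0.27 (0.141). Cd34, carried by dermal fibroblasts, endothelium and follicle stem cells, measured 257, 203 and 268 CPM against 460, 529 and 460 CPM, at 0.99 ± 0.18 (0.0627). Its list, fibroblast markers, had a median of 0.23 with 9 of 14 above 0 and no call by edgeR. DESeq2 called 2 of 14, both higher. Matrix degradation as a list had a median of 0.06, so Mmp27, Timp3 and Plau stood apart from it. DESeq2 called these 3 among the 19 members with an adjusted p, all higher, and edgeR called none.
Schwann cell markers had a median of 0.43, with 9 of 11 above 0 and Ngfr called. The myelin genes Mbp and Pmp22 stood at 0.38 ± 0.13 (edgeR adjusted p = 0.255) and 0.57 ± 0.18 (0.222), and Scn7a, a sodium channel of non-myelinating Schwann cells, at 0.49 ± 0.19 (0.287).

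mt-Nd3 was not typical of its genome. Of 23 mitochondrially encoded genes tested, 21 were above 0, with a median of 0.48 and no other call. mt-Nd2, another complex I subunit, measured 7270, 3000 and 6910 CPM in WT_UV and 8820, 9310 and 10800 CPM in KO_UV, at 0.75 ± 0.32 (edgeR adjusted p = 0.304). mt-Nd3 lay far below that, on 25, 11 and 25 counts in WT_UV and 141, 139 and 269 counts in KO_UV. The counting of multiply aligned reads is not stated, so its level is uncertain. mt-Nd4l was at 35.0, 0.910 and 1.02 CPM in WT_UV and 1.24, 1.32 and 1.76 CPM in KO_UV, so its -3.08 ± 1.05 (0.247) rested on WT_UV replicate 1. The share of all counts from mitochondrial genes was 6.86%, 4.11% and 7.58% in WT_UV and 7.69%, 7.60% and 10.5% in KO_UV. The highest share belonged to KO_UV replicate 3, the library of low Gm42418 share.

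The unirradiated groups allow the same contrast in other libraries. There edgeR called 2 of 20365 genes (0.00982%), Vsir at -2.64 ± 0.23 (adjusted p = 0.00047) and Wdfy1 at -1.66 ± 0.15 (adjusted p = 0.00047). All 9 genes called after UVB had the same sign without UVB and 7 had an unadjusted p under 0.05 there, beside 3219 of all genes. Lyve1 stood at 1.52 ± 0.29, Timd4 at 1.98 ± 0.37, mt-Nd3 at 1.97 ± 0.33 and Mmd2 at 3.75 ± 0.63 without UVB, whereas Msr1 stood at 0.42 ± 0.26 and Ngfr at 0.45 ± 0.23. The interferon gamma list had medians of 1.68 after UVB and 1.62 without it, the interferon-stimulated list 1.22 and 0.79, and the proliferation list -0.77 and -0.81. Monocyte chemokines had medians of 1.09 and 0.44, and macrophage markers 0.69 and 0.23.

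Whether the effect of genotype differed with UVB was tested as an interaction, and edgeR called 0 of 20365 genes (0%), while 313 had an unadjusted p below 0.05. DESeq2 called 0 as well. Ngfr measured 12.9, 7.98 and 9.79 CPM in WT_NoUV, 11.3, 15.7 and 15.1 CPM in KO_NoUV, and fell with UVB in wild-type skin by 1.44 on the log2 scale (SE 0.24, edgeR adjusted p = 0.00167, among 3817 genes called there, 18.7%). In knockout skin its change with UVB was -0.03 ± 0.23 (edgeR adjusted p = 0.942), and the difference between genotypes was 1.41 (edgeR adjusted p = 1).
Msr1 rose with UVB in knockout skin by 1.41 ± 0.26 (edgeR adjusted p = 0.00219, among 4552 genes called there, 22.4%) and stood at 0.17 ± 0.26 in wild-type skin (adjusted p = 0.694), with a difference between genotypes of 1.24 (edgeR adjusted p = 1). Lyve1 rose with UVB in both, by 1.38 ± 0.29 in wild-type skin (edgeR adjusted p = 0.00565) and 2 ± 0.29 in knockout skin (0.000579). The 2 UVB comparisons use the same libraries as the genotype comparisons and are not independent of them.

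Wdfy1, an adaptor of Toll-like receptor signalling from endosomes, was the other gene called without UVB. It also belongs to a list of genes that vary between mouse strains. After UVB, 6 of the 7 tested members of that list were above 0, and edgeR called none. A part of strain background in the Wdfy1 values was not tested. It measured 49.3, 37.6 and 46.2 CPM in WT_UV and 27.4, 28.5 and 27.8 CPM in KO_UV, without overlap, at -0.67 ± 0.15 (edgeR adjusted p = 0.0961). Without UVB it measured 38.3, 46.1 and 49.1 CPM in WT_NoUV and 15.2, 13.9 and 13.1 CPM in KO_NoUV. The gap between genotypes was smaller by 0.99 after UVB (edgeR adjusted p = 1), and the gene rose with UVB in knockout skin (0.99 ± 0.15, edgeR adjusted p = 0.00074) and stood at 0.00 ± 0.15 in wild-type skin.

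Deletion of Vsir in keratinocytes was examined after the same UVB dose. Between cKO_UV and FL_UV edgeR called 0 of 19718 genes (0%), with 1046 at an unadjusted p under 0.05, and DESeq2 called 2. Vsir itself measured 28.0 ± 10.9 CPM in cKO_UV and 29.5 ± 4.83 CPM in FL_UV (SD, n = 4 each), a difference of -0.07 ± 0.32, so a loss of the message was not detectable in whole skin. Of the 8 genes called in the whole-body comparison that were tested here, 3 had the same sign (Vsir, mt-Nd3 at 0.39 ± 1.07 and Mettl7a1 at 0.14 ± 0.37). Of those with the opposite sign, Lyve1 stood at -0.76 ± 0.44, Timd4 at -0.44 ± 0.65 and Msr1 at -0.72 ± 0.39. The medians of the interferon-stimulated and macrophage lists were 0.01 and -0.51, and the proliferation list stood at -0.81. Antigen presentation genes had a median of 0.31 (22 of 23 above 0) and the interferon gamma list 0.26 (14 of 19). The experiments differ in batch label, control genotype and depth, and the difference between them was not tested.

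**Figure D4:**
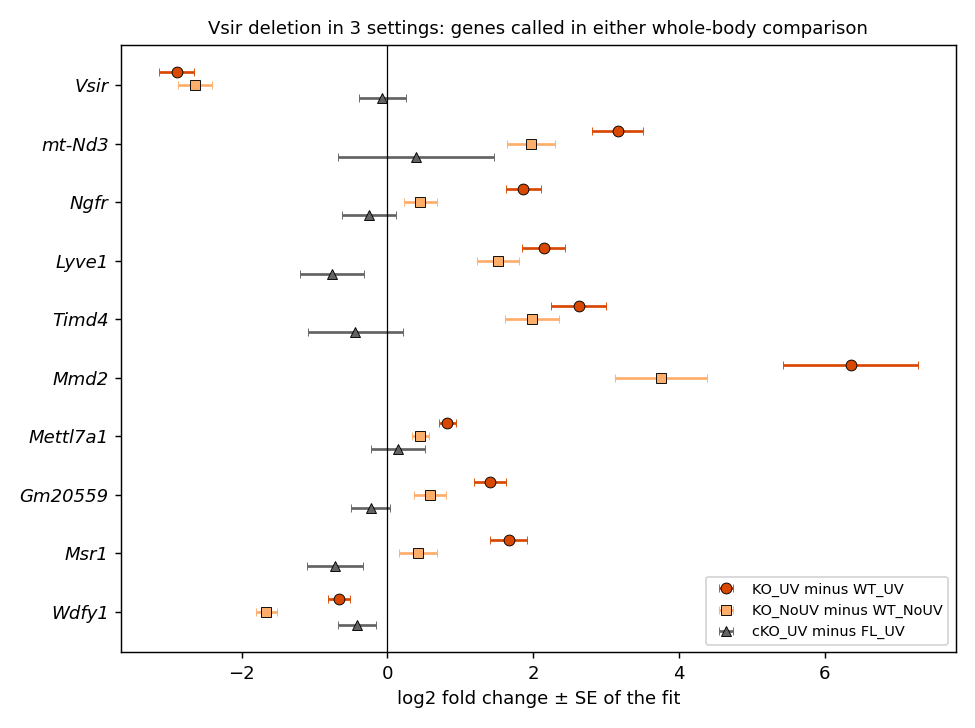
Log2 fold change with the SE of the fit as bars for the 10 genes called in either whole-body comparison, in irradiated whole-body knockouts (circles), unirradiated whole-body knockouts (squares) and irradiated K14Cre floxed mice (triangles). Lyve1 stands at 2.14, 1.52 and -0.76 in these, and Mmd2 was not tested in the third.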

How the data were processed

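The deposited values are raw counts per gene, made by the authors with cutadapt 4.6, HISAT2 2.1.0 and featureCounts of Subread on build GRCm38, per the submitters' processing notes. Libraries came from ribosome-depleted total RNA with a stranded kit, per the labels' protocols, and settings for strand and multiply aligned reads are not given in the sources used here. Of 55394 genes matched by identifier, 99.68% had the position given in the GRCm38 reference annotation.

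Counts of the 12 whole-body libraries were fitted together with edgeR 4.0.16 in R 4.3.3 (TMM scaling, filter on expression, robust quasi-likelihood, 1 coefficient per group), and the 16 keratinocyte libraries in a separate fit, joined by gene identifier. P values are two-sided and set each difference against a spread estimated from all libraries of its fit. For KO_UV against WT_UV that spread thus includes the unirradiated whole-body libraries. The median distance from an estimate to either end of its 95% interval was 0.567 on the log2 scale. List means are log2 CPM with a prior count of 3. DESeq2 1.42.0 was an alternative. The fit was tested on simulated data.

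The members and gene lists were chosen with earlier results of these data known. Genes were named by a rule: Vsir, every called gene, a panel of 21, the 4 members of each list with the lowest p, and any call in the 5 Mb around Vsir. A gene that the rule names among the monocyte chemokines is not reported here. Deviations of same-numbered irradiated libraries correlated between genotypes at -0.0376, -0.0608 and 0.248 for replicates 1, 2 and 3. Unirradiated, the correlations were -0.0853, 0.11 and 0.239. Replicate 3 was thus weakly positive in both, and replicate 1 in neither. The main fit did not pair libraries by number, and whether the numbers stand for a shared origin is not stated. No library was found to be a duplicate.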

Additional observations from a re-analysis of the deposited data

How the results depend on the processing

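The 9 calls between KO_UV and WT_UV became 31 with the replicate number as a block (27 higher), 162 with no filter on low counts, 450 with DESeq2 and 273 with muscle and hair follicle covariates, and each of these included all 9. They became 7 with size factors of another kind (RLE) and 12 with the 2 groups alone. Leaving out 1 of the 6 irradiated libraries gave 2 to 19 calls. Alternatives chosen after seeing the data left out 1 unirradiated library, with 3 to 155 calls (155 without WT_NoUV replicate 1), or both libraries of low Gm42418 share, with 1. The cause of these changes was not tested. Unirradiated, the 2 calls became 22 with the replicate block, 185 with no filter, 594 with DESeq2, 4 with the 2 groups alone, 0 with the covariates and 2 to 13 without 1 library. The interaction had 0 calls under every alternative run. The keratinocyte comparison had 2 calls with DESeq2 and 0 under the other alternatives. The named genes that were called kept their sign under all 19 alternatives. The least stable were Mettl7a1 and Gm20559, called in 8 of 19, followed by Msr1 in 9, Timd4 and Mmd2 in 10, Lyve1 in 13, Ngfr in 15, mt-Nd3 in 18 and Vsir in 19.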
